A study of Mus musculus with 2 samples.

Results

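Cells with Adgre1 RNA and little or no complement C1q RNA were taken from single-cell libraries of mouse bone marrow derived macrophages, one of the populations that such cultures held. A cell was a member when it had at least 500 detected genes, at least 1000 unique molecular identifiers (UMIs, each standing for one captured RNA molecule) with mitochondrial genes giving no more than 10% of them. Per 10000 UMIs of the cell it also needed an Adgre1 value of at least 2, summed C1qa, C1qb and C1qc under 2, summed Vcan and F13a1 under 5, Atp6v0d2 under 1.5, summed Rsad2, Ifit1, Ifit2 and Ifit3 under 10, summed H2-Aa, H2-Ab1, H2-Eb1 and Cd74 under 50, and summed Mpo, Elane, Prtn3 and Ctsg under 40. The last 5 limits keep out cells rich in monocyte, osteoclast, interferon, antigen presentation and promyelocyte RNA. In all, 3229 of 23101 kept cells were members. Marrow cells of WT (wild-type) 129Sv mice, their age and number not given in the sources used here, had been grown with 50 ng/ml macrophage colony-stimulating factor in both groups. On day 7 one culture received 1 µg/ml of a truncated Tamm-Horsfall protein that does not polymerize (THP, also called uromodulin, a protein that kidney tubule cells secrete) and the other the vehicle, 5% dextrose, each for 18 h. There was 1 library per group, so no difference has a replicate check, treatment and library cannot be told apart, no p-value was computed, and every interval covers counting error only.

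Macrophage colony-stimulating factor acts through the receptor Csf1r and turns marrow precursors into adherent macrophages that carry the adhesion receptor F4/80, the product of Adgre1. Macrophages are a main source of C1q, the recognition protein that starts the classical complement pathway and tags dying cells for uptake, and C1q RNA is typical of mature and tissue-resident macrophages. Microbial products and other danger signals reach these cells through CD14 and the Toll-like receptors, which release the transcription factor NF-kB from its inhibitors and so drive cytokine and chemokine genes together with the genes that later shut the response off.

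The THP library held 2019 members, 16.65% of its 12123 kept cells (exact binomial 95% interval 16 to 17.33), and the vehicle library 1210, 11.02% of 10978 (10.44 to 11.62). These shares are set by the genes of the rule: 50.19% of THP cells but 35.27% of vehicle cells passed the Adgre1 limit, so no direction is drawn from them. Among cells past the Adgre1 limit, the C1q limit alone kept out 2987 THP and 1634 vehicle cells, called C1q-high cells here. Member cells summed to 40930752 UMIs with THP and 26180989 with vehicle, with medians of 18550 and 19970 UMIs and of 3961 and 4418 genes per cell. Of all kept barcodes, 38 occurred in both libraries, and 1 of those was a member in both.

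The macrophage markers were present, but the rule has no limit on neutrophil RNA, and part of the population was rich in it. Of 12 macrophage markers, 11 reached 10 counts per 1000000 UMIs (CPM) in the THP members and 12 in the vehicle members. S100a8, S100a9, Retnlg, Ngp, Camp and Ltf, which encode granule and calprotectin proteins of neutrophils, summed to 50 or more per 10000 UMIs in 361 THP members (17.88%, interval 16.23 to 19.62) and in 293 vehicle members (24.21%, 21.82 to 26.73). These cells were shallow: their median was 3252 UMIs with THP and 2683 with vehicle, against 19980 and 23280 in the other members. A single Adgre1 UMI carried 203 of the 361 (56.23%) and 192 of the 293 (65.53%) past the Adgre1 limit, against 29 (1.749%) and 11 (1.20%) of the members with low neutrophil RNA.

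Below 5000 UMIs the neutrophil-rich members held macrophage markers unevenly. Of the 12 markers, 9 reached 10 CPM in each library, and their sum, 41120 CPM with THP and 40360 CPM with vehicle, was above the 24660 and 21910 CPM of the low-neutrophil members. Lyz2, which encodes lysozyme and is also made by neutrophils, gave 37370 and 36520 CPM of it. Retnlg stood at 5744 CPM in 238 THP cells and 9371 CPM in 215 vehicle cells, against 7708 and 10580 CPM of all cells with Retnlg of at least 5 per 10000. Cd68, a lysosomal membrane glycoprotein, was at 130 and 178 CPM, against 441 and 426 CPM in members with low neutrophil RNA. Fcgr1, the high-affinity receptor for immunoglobulin G, was at 3.30 and 3.83 CPM, against 146 and 130 CPM. At 10000 UMIs or more, 84 THP and 57 vehicle members combined both kinds of RNA, with Fcgr1 at 121 and 98.4 CPM and S100a8 at 11740 and 13680 CPM. No doublets were called, and their part in these cells was not tested. The label "macrophage" is used for the 1658 THP and 917 vehicle members with low neutrophil RNA, which held 92.06% and 91.43% of the members' UMIs. Results below are for all members, with the value in the low-neutrophil members beside those that lead.

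**Figure D1:**
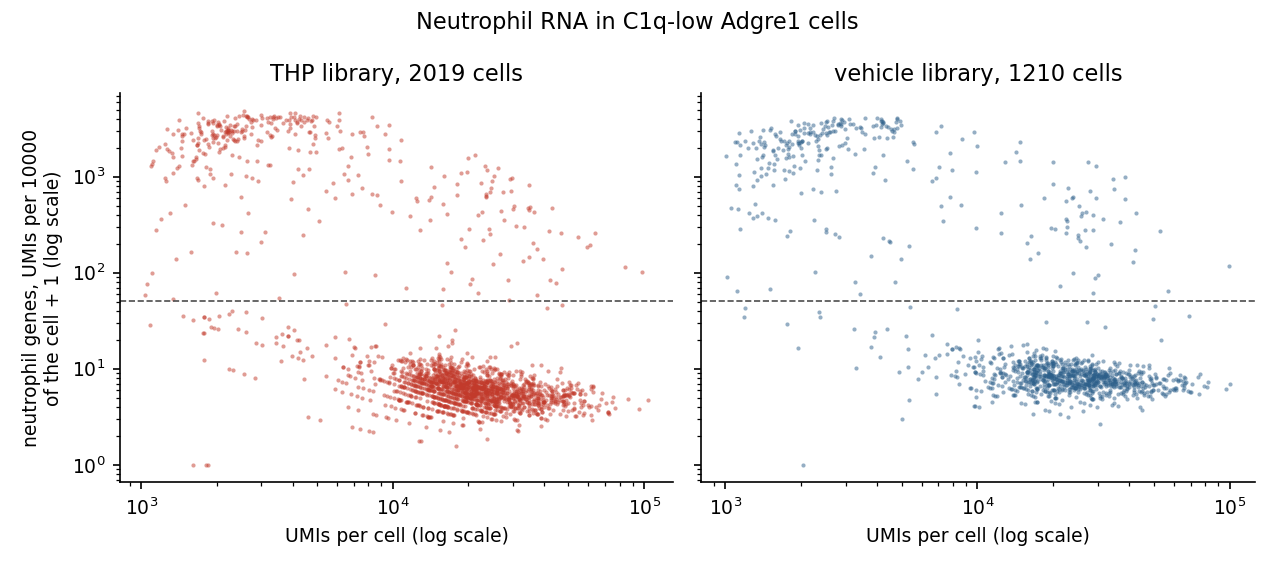
Each point is 1 member cell, with its UMIs on the horizontal log axis and its summed S100a8, S100a9, Retnlg, Ngp, Camp and Ltf UMIs per 10000, plus 1, on the vertical log axis; the dashed line marks 50 per 10000. In both libraries most cells lie below the line at 10000 UMIs or more, and a second, shallow group lies far above it (361 THP and 293 vehicle cells above the line in all).

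In the low-neutrophil members 5 markers of macrophages were at levels within 1.5-fold of each other in the 2 libraries. Adgre1 was at 457 CPM with THP and 389 CPM with vehicle, but the rule selected on it. Csf1r was at 282 and 319 CPM, Lyz2 at 17530 and 14190 CPM, Cd68 at 441 and 426 CPM, and Msr1, a scavenger receptor, at 523 and 581 CPM. Some markers of other myeloid cells were also present at 10 CPM in these cells: 5 of 6 monocyte markers with THP and 6 of 6 with vehicle, 4 of 8 osteoclast, 2 of 8 progenitor, 4 of 9 immature neutrophil and 3 of 10 mature neutrophil markers in each library, the last summing to 516 and 712 CPM. Of 8 stromal markers 0 reached it with THP and 3 with vehicle. No listed marker of dendritic cells (8), mast cells and basophils (8), eosinophils (5) or T and NK cells (6) reached 10 CPM in either library, while Ighm of the B lineage and Pf4, a chemokine shared by macrophages and platelets, were the only members of their lists that did. Retnlg remained at 3.03 and 5.77 CPM.

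The limits cut through a continuum. With Adgre1 between 2 and 2.5 per 10000 there were 264 THP and 217 vehicle members, and just outside, between 1.5 and 2, 289 and 264 cells that met every other limit. With summed C1q between 1.5 and 2 there were 174 and 70 members, at a median of 4 C1q UMIs in each library, and between 2 and 2.5 there were 119 and 81 cells just outside, at medians of 5 and 6 UMIs. No C1q UMI at all was found in 1038 THP members (51.41%) and 656 vehicle members (54.21%), neutrophil-rich ones included. Those cells were shallower, with medians of 13980 and 14050 UMIs against 18550 and 19970 over all members. A count of 0 therefore does not show that the RNA was absent.

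Among the genes higher with THP in these cells, inflammatory genes had the largest ratios. All 15 measured genes of the inflammatory list (of 20 listed, those that reached 10 CPM in either library) had a higher value in the THP library, also with other scaling factors, and 11 of the 15 were at least 2-fold higher. Across all 7834 genes measured at that level, 80 were at least 2-fold higher with THP, or 1.02%. The list's median log2 ratio of CPM + 1, THP over vehicle, was 1.93, against -0.16 over all 7834 genes. In the low-neutrophil members 11 were again 2-fold higher (81 of 7795 genes, 1.04%) and the median was 1.90, with 14 of the 15 above 0. With equal weight per cell 14 were above 0 as well. No gene of the list was 2-fold lower in either set of cells, where 2.99% and 2.87% of all genes were. The list was chosen with results of these data known, so its direction is no independent evidence.

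Acod1 (ENSMUSG00000022126, chr14:103046977-103056573, plus strand), whose enzyme makes itaconate in activated macrophages, had 93.2 CPM (exact Poisson 95% interval 90.3 to 96.2) in THP members and 6.80 CPM (5.84 to 7.87) in vehicle members. Its log2 ratio of 3.59 was the highest of all measured genes over all members. In the low-neutrophil members it was 3.71, below the 4.30 of Il1b. Saa3, an acute-phase serum amyloid protein, was at 149 CPM (145 to 152) with THP and 23.6 CPM (21.7 to 25.5) with vehicle, but 5 cells held 60.45% of its vehicle UMIs, and its log2 ratio of 2.61 became 3.69 without the 5 richest cells of each library. The chemokine Ccl4 was at 253 CPM (248 to 258) and 43.6 CPM (41.1 to 46.2), and its neighbour on chromosome 11, Ccl3, at 199 CPM (195 to 203) and 36.2 CPM (34.0 to 38.6). Both attract leukocytes, and their transcripts are similar enough that reads may have been shared between them. Tnf (chr17:35199381-35202007, minus strand), the tumor necrosis factor gene, was at 135 CPM (131 to 138) with THP against 27.3 CPM (25.4 to 29.4).

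For Il1b, the gene of interleukin-1 beta, the neutrophil-rich members set the vehicle level. Over all members it had 58.9 CPM with THP and 10.0 CPM with vehicle, a log2 ratio of 2.44. In the low-neutrophil members the levels were 38.4 and 1.00 CPM, and the log2 ratio was 4.30. No other gene among the 10 highest moved by as much between the 2 sets of cells. The monocyte-attracting chemokine Ccl2, abundant in both libraries, was at 1319 CPM with THP and 803 CPM with vehicle, a log2 ratio of 0.72, and its relatives Ccl7 and Ccl12 had log2 ratios of 1.57 and 1.71. Cxcl10, an interferon-inducible chemokine of which 5 cells held most vehicle UMIs, had a log2 ratio of 0.78, Il1rn, the natural antagonist of the interleukin-1 receptor, 0.23, and Lcn2, an iron-binding lipocalin, 0.11. Lcn2 was at 545 and 505 CPM over all members and at 29.6 CPM in both libraries in the low-neutrophil members.

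**Figure D2:**
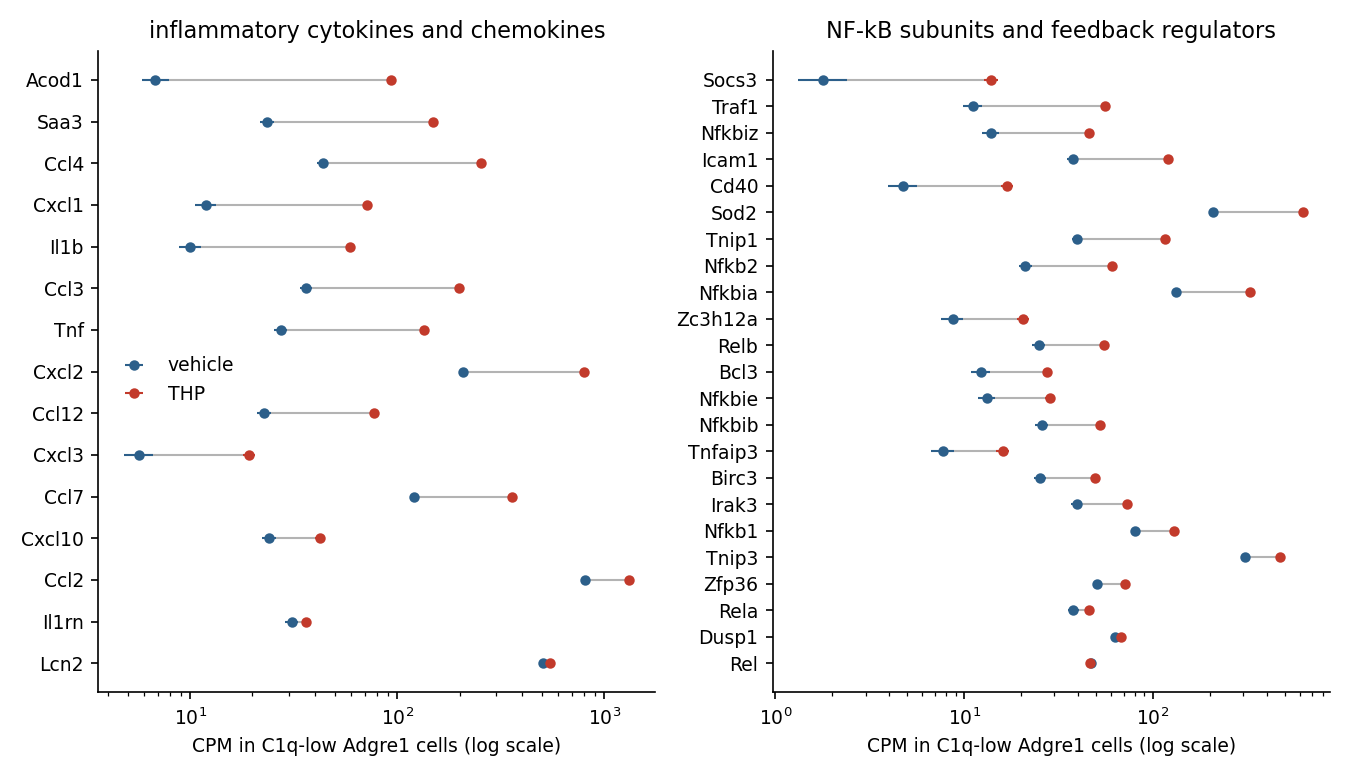
CPM (log axis) of the measured inflammatory genes (left) and NF-kB genes (right) in C1q-low Adgre1 cells of the THP library (red) and the vehicle library (blue), sorted by log2 ratio; bars are exact Poisson 95% intervals for counting error. The red points lie to the right of the blue points for all 15 inflammatory genes and for 22 of 23 NF-kB genes, Rel being the exception (above 0 with trimmed mean scaling), with the widest gaps for Acod1 (93.2 and 6.80 CPM) and Socs3 (13.9 and 1.80 CPM).

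The neutrophil-attracting chemokines Cxcl1, Cxcl2 and Cxcl3 lie in the same region of chromosome 5 and were all higher with THP. Cxcl1 was at 71.2 CPM (68.7 to 73.9) with THP and 11.9 CPM (10.6 to 13.3) with vehicle, Cxcl2 at 796 and 208 CPM, and Cxcl3 at 19.3 and 5.65 CPM, with log2 ratios of 2.49, 1.93 and 1.61. Their promoters, with that of Il1rn, are shown because they hold a letter pattern of the NF-kB binding site. The pattern, GGG then any 2 bases then TTTCC, was searched on both strands of the 250 bases before each RefSeq gene start (GRCm38.p6, mouse), where it was present in 464 of 32851 promoters (1.41%). Counted by gene, 447 of 27025 genes (1.65%) and 4 of the 12 measured inflammatory genes in the promoter table had at least 1 promoter with it. Il1rn has 3 promoters there, of which the 1 printed holds a match. The sequences run 5′ to 3′ on the gene's strand and end at the base before the start, with matches in capitals.
Cxcl1, chr5:90890995-90891244, plus strand: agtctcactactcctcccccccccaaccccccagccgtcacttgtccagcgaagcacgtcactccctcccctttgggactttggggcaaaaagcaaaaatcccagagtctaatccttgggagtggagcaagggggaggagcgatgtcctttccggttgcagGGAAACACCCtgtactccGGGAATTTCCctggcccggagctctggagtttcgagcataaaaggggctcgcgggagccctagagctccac
Cxcl2, chr5:90903649-90903898, plus strand: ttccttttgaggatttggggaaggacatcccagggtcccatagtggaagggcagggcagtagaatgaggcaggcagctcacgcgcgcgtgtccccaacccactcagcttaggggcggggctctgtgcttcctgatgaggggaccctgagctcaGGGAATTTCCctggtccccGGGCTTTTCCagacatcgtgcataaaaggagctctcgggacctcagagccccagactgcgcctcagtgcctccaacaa
Cxcl3, chr5:90785851-90786100, plus strand: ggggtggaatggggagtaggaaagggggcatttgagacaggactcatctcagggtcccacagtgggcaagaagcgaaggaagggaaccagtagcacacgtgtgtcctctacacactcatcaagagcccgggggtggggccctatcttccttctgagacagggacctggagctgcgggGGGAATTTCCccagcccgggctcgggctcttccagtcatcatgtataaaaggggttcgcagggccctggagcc
Il1rn, chr2:24345121-24345370, plus strand: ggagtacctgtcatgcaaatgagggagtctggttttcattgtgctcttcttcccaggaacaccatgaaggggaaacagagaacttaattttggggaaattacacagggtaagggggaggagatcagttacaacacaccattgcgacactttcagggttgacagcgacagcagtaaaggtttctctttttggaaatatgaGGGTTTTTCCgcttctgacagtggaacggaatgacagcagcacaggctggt
The 3 chemokine promoters each hold the same match, GGGAATTTCC, beginning 71, 97 and 73 bases before the start in Cxcl1, Cxcl2 and Cxcl3. Cxcl1 and Cxcl2 hold a second match, on the minus strand at 89 bases and on the plus strand at 78 bases. Il1rn, with 1 match at 51 bases, had the log2 ratio of 0.23 given above, and no match was found in the windows of Acod1, Tnf, Il1b, Ccl3 and Saa3. A match describes letters and is not evidence of binding, which was not measured.

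The NF-kB subunits and the genes that restrain them were mostly higher with THP as well. Of 23 measured genes, 13 were at least 2-fold higher and none was 2-fold lower, against 1.02% and 2.99% of all 7834 genes. The absence of lower genes cannot be told from that share. The median log2 ratio was 1.11, against -0.16 over all genes. In low-neutrophil members 13 genes were again 2-fold higher, against 1.04% of all genes, and the median was 1.10. This list was also chosen with results of these data known, so its direction is no independent evidence. Inhibitors of NF-kB were among the 13 higher genes. Nfkbia, which holds the factor in the cytoplasm, was at 328 CPM with THP and 133 CPM with vehicle. Nfkbie was at 28.5 and 13.2 CPM. Nfkbiz, which acts in the nucleus on secondary response genes, was at 46.0 and 13.8 CPM. Its log2 ratio was 1.66 but 0.63 when every cell had equal weight. Of the subunits, Nfkb2 and Relb of the noncanonical branch had log2 ratios of 1.47 and 1.11, and Nfkb1, Rela and Rel of the canonical branch 0.67, 0.28 and -0.01, that of Rel being above 0 under trimmed mean (TMM) scaling. Socs3, an inhibitor of cytokine receptor signaling, was at 13.9 CPM (12.8 to 15.1) with THP and 1.80 CPM (1.32 to 2.39) with vehicle. Icam1, the integrin ligand, Cd40, the costimulatory receptor, Traf1, a signaling adaptor, and Sod2, the mitochondrial superoxide dismutase, had log2 ratios of 1.64, 1.64, 2.22 and 1.59.

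The receptors that sense microbial products moved in both directions. Cd14, the coreceptor for lipopolysaccharide, was at 1221 CPM with THP and 486 CPM with vehicle, and Tlr2, the receptor for bacterial lipoproteins, at 94.5 and 38.2 CPM. Both were 2-fold higher, with log2 ratios of 1.33 and 1.28, the second falling to 0.99 with equal weight per cell. Tlr4 itself was lower, at 11.9 and 30.6 CPM, as were Tlr8, at 5.16 and 19.8 CPM, and Tlr13, at 36.6 and 76.4 CPM, which both sense RNA. Their log2 ratios were -1.29, -1.75 and -1.04. With TMM that of Tlr13 became -0.79. The remaining 9 of the 14 measured genes, among them Ly96, the partner of Tlr4, at 0.28, and the adaptor Myd88, at 0.46, stayed within 2-fold. Gpr84, a receptor for medium-chain fatty acids, was at 211 CPM (206 to 215) and 41.4 CPM (38.9 to 43.9). Mmp14, a membrane-bound metalloproteinase, was at 26.3 CPM (24.7 to 27.9) and 4.43 CPM (3.66 to 5.31). Both were among the 10 highest ratios, at 2.32 and 2.33.

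Interferon-stimulated genes stayed near the level of all genes. None of the 20 measured genes outside the rule was 2-fold higher or lower. Over all 7834 genes 1.02% were higher and 2.99% lower, so this count cannot be told from the share of all genes. Their median log2 ratio was -0.21 (0.04 with TMM), against -0.16 over all genes (0.10 with TMM). Isg15, a ubiquitin-like protein, and Bst2, which tethers enveloped viruses, had the highest ratios, 0.57 and 0.59. Since the rule set a ceiling on Rsad2 and 3 Ifit genes, cells with a strong interferon response had been left out of both libraries.

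Of the genes for uptake of particles and dying cells, the scavenger and phagocytic receptors were near the level of all genes: 11 of 15 were below 0, as were 5130 of all 7834 genes, and 7 of 15 with TMM. Of the 15 scavenger and phagocytic receptors, Clec4e, which recognizes mycobacterial glycolipid and is itself inducible, was the 1 past 2-fold, at 424 CPM with THP and 130 CPM with vehicle. Cd36, which takes up oxidized lipoprotein, was at 382 and 607 CPM, and the mannose receptor Mrc1 at 137 and 206 CPM, with log2 ratios of -0.67 and -0.58. Marco, a scavenger receptor, had a log2 ratio of 0.81 that became 2.27 without the 5 cells richest in it. All 9 measured genes for recognition of dying cells were below 0, at a median of -0.61, but 7 of 9 under TMM, where the median was -0.36, and 6 of 9 with the length trend described below removed, where it was -0.16. Mertk, the receptor kinase that mediates this uptake, was at 6.33 and 12.9 CPM, and Pros1, its bridging ligand, at 10.7 and 19.1 CPM.

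Maturation and monocyte genes stayed mostly within 2-fold, as did all genes, of which 2.99% were lower and 1.02% higher. On these lists 1 of 15 and 1 of 14 were at least 2-fold lower with THP and none was 2-fold higher. The list medians of -0.17 and -0.16 became 0.09 and 0.10 with TMM. Among maturation genes Maf, a transcription factor, stood at -0.50 and Pf4 at 0.53. Of the monocyte genes, Ccr2, the receptor for Ccl2, was at 78.8 and 157 CPM, a log2 ratio of -0.98. Nr1h3, the oxysterol receptor LXR alpha, was at 15.9 CPM with THP and 5.23 CPM with vehicle (1.44), and Cebpb, a transcription factor of the acute phase response, at 486 and 257 CPM (0.92). Cd55, which disarms complement on the cell surface, was at 12.1 and 4.35 CPM (1.29).

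The metabolic and cell cycle lists stayed near the level of all genes. No gene of the 19 glycolysis and hypoxia, 18 cholesterol biosynthesis, 25 lysosomal or 7 alternative activation genes passed 2-fold in all members. Over all 7834 genes 1.02% were higher and 2.99% lower, and a count of 0 or 1 in lists this short cannot be told from that. Slc2a1, the glucose transporter, was at 0.73 and the hexokinase Hk1 at -0.80. Slc40a1, the iron exporter ferroportin, was at 4.98 and 14.2 CPM, a log2 ratio of -1.35 and the 1 of 15 antioxidant and iron genes past the limit. Fabp4, a fatty acid carrier, was the 1 of 16 lipid-associated genes past it, at 1.04. Among 14 immediate early genes Ier3 was at 1.26 and Fosb at -1.48. None of 20 S phase genes and 1 of 20 G2 and M phase genes, Mki67 at -1.02, passed 2-fold. That of Mki67 became -0.40 once a trend with transcript length, described next, was removed.

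**Figure D3:**
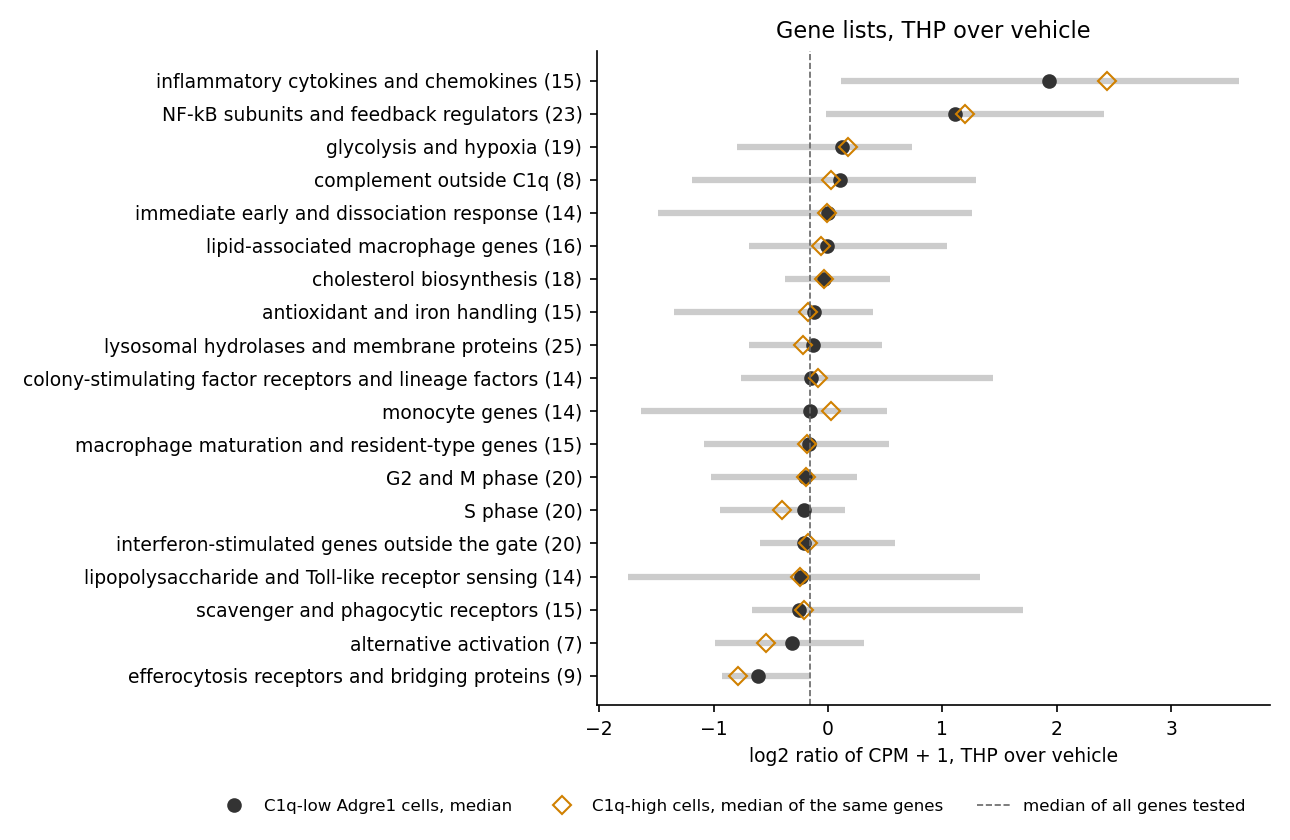
For each of the 19 gene lists, with the number of measured genes in brackets, the black dot is the median log2 ratio of CPM + 1, THP over vehicle, in C1q-low Adgre1 cells, the grey bar its lowest to highest gene, and the open diamond the median of the same genes in C1q-high cells. The inflammatory and NF-kB lists, at 1.93 and 1.11, lie to the right of the dashed median of all genes (-0.16), and the other 17 medians lie between -0.61 and 0.13.

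At least 2-fold lower with THP were 234 of the 7834 genes (2.99%), and this count rested on scaling and transcript length. Of all calls 25.5% were higher. With TMM factors the median of all genes moved from -0.16 to 0.10, 120 genes were higher and 75 lower, and 61.5% of calls were higher. The median log2 ratio over all measured genes went down with the longest annotated transcript, from 0.13 in the 1566 genes with the shortest to -0.51 in the 1566 with the longest, and 116 of the lower genes were among the latter. After this trend was removed, 79 of the 80 higher genes but 60 of the 234 lower genes were still past 2-fold. The inflammatory median was then 1.92. Of the 80 higher genes, 78 were also 2-fold higher without the neutrophil-rich members, and 208 of the 234 lower genes were also lower.

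The lowest ratios belonged to genes of connective tissue, and these came from few cells. Col1a1 and Col1a2, the chains of type I collagen, were at 0.171 CPM (0.0688 to 0.352) and 1.20 CPM (0.886 to 1.58) with THP and at 29.4 CPM (27.3 to 31.5) and 37.5 CPM (35.2 to 40.0) with vehicle. The matrix protein Sparc was at 1.27 and 18.5 CPM. A single vehicle cell held 74.25% of the Col1a1 UMIs, 70.70% of the Col1a2 UMIs and 60.82% of the Sparc UMIs, and 5 cells held 95.45%, 97.56% and 96.70%. Without the 5 cells richest in each, the log2 ratio of Col1a2 went from -4.13 to -0.63 and that of Sparc from -3.10 to -0.56. That of Cald1, a cytoskeletal protein, went from -2.19 to -0.34. For Col1a1, at 7 THP and 769 vehicle UMIs over all members, that ratio is not given here. Of 8 stromal markers, 3 reached 10 CPM in vehicle members and 0 in THP members, with summed levels of 90.6 and 4.10 CPM. The part of stromal cells in these ratios was not tested further.

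The other 6 of the 10 lowest ratios were not held by so few cells. Nlrp1b, an inflammasome sensor, was at 2.20 CPM (1.77 to 2.70) with THP and 15.4 CPM (14.0 to 17.0) with vehicle. Slc8a1, a sodium-calcium exchanger, was at 2.13 CPM (1.70 to 2.62) and 12.6 CPM (11.3 to 14.0), and Cytip, which regulates leukocyte adhesion, at 9.80 and 36.1 CPM. The log2 ratios of these 3 genes were -2.36, -2.12 and -1.78, and -2.05, -1.34 and -1.32 after the length trend was removed. Rnf150 and the histone gene Hist1h3c were at -1.76 and -1.79. Histone genes have near-identical copies and mostly lack poly(A) tails, so their counts are uncertain. Jaml, an adhesion molecule that neutrophils also carry, had a log2 ratio of -1.83 over all members, on 4.37 and 18.1 CPM, and was at 1.30 and 3.59 CPM in the low-neutrophil members.

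The difference was also seen at the level of single cells, with large spread among them. For a fair view of shares, 1611 THP and 902 vehicle low-neutrophil members were thinned to 5000 UMIs each, leaving out 47 and 15 shallower cells. A Cd14 UMI was then found in 96.77% of THP cells and 79.82% of vehicle cells, a Gpr84 UMI in 59.16% and 13.97%, a Tnf UMI in 38.86% and 11.31%, and an Acod1 UMI in 28.00% and 2.55%. Cells rich in granule proteases, a precursor type, were set beside them for comparison. The shares there at that depth were 28.98% and 18.03% for Cd14, 33.03% and 10.26% for Gpr84, 7.36% and 1.40% for Tnf, and 1.95% and 0.324% for Acod1. Median depths before thinning were 20420 and 23530 UMIs in members and 16300 and 20570 UMIs in those cells. For Gpr84 the vehicle share in members was near that of the vehicle precursor cells, whose own share was higher with THP. Background RNA was not measured. Of cells with Retnlg of at least 5 per 10000, 194 THP and 179 vehicle cells could be thinned, leaving out 644 and 959 shallower ones. An Adgre1 UMI was found in 36.60% and 34.64% of those thinned, and their part of mixed cells was not tested. In them Tnf was found in 37.63% and 12.29%, Acod1 in 31.44% and 3.35%, and Gpr84 in 60.31% and 16.76%. Cd14 was found in 88.14% and 59.22% and Ccl4 in 19.59% and 4.47%. Ccl4 was found in 37.80% and 10.98% of members. For Il1b the shares were 33.51% and 6.15% in the Retnlg cells and 8.88% and 0.776% in members. Tnf, Acod1 and Gpr84 shares were thus near those of members, while Cd14 and Ccl4 were found in fewer and Il1b in more of these deeper Retnlg cells. The shares are not those of the shallower Retnlg cells. Before thinning, 64.64% of THP and 29.67% of vehicle members had a Tnf UMI, and 52.20% and 7.36% an Acod1 UMI.

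These genes differed in how much their counts varied between cells. The Fano factor, the variance over the mean, is near 1 when cells differ by counting noise alone. At 5000 UMIs it was 8.03 for Ccl4 in THP cells and 4.74 in vehicle cells, 5.71 and 2.58 for Ccl3, and 6.94 for Il1b in THP cells, where 8.88% of cells had an Il1b UMI. Saa3 had 10.4 with THP and 26.8 with vehicle. The factor was nearer to 1 for Tnf, at 2.02 and 1.40, Acod1, at 2.01 and 1.74, and Gpr84, at 1.495 and 1.27. It also depends on the mean, so it does not rank genes of different level by evenness. Acod1 averaged 0.446 UMIs per THP cell and 0.0344 per vehicle cell. Over all members, 5 cells held 4.38% of its THP UMIs and 26.40% of its vehicle UMIs, against 7.53% and 21.38% for Ccl4. For comparison, Cd68 had 1.37 and 1.39 and Csf1r 1.13 in both libraries.

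Of 3 monocyte genes, Ccr2 and Ly6c2 were lower in members with more Adgre1 RNA and Fn1 varied less. The low-neutrophil members with at least 10000 UMIs were divided at Adgre1 values of 3 and 5 per 10000, giving 392, 638 and 503 THP cells and 311, 351 and 194 vehicle cells from the lowest band to the highest. Ccr2 was at 95.3, 87.5 and 56.9 CPM across the THP bands and at 189, 158 and 98.2 CPM across the vehicle bands. Ly6c2, a surface protein of inflammatory monocytes, was at 80.3, 48.6 and 25.1 CPM with THP and 52.9, 53.4 and 23.8 CPM with vehicle. Both thus stood lowest in the band with most Adgre1 in each library. Fn1, the fibronectin gene, was at 33.9, 40.7 and 31.3 CPM with THP and 68.8, 68.7 and 61.1 CPM with vehicle.

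Apoe, Mrc1 and Csf1r ran the other way along the same bands, whereas Cx3cr1, the fractalkine receptor, went down. Apoe was at 143, 157 and 235 CPM with THP and 109, 157 and 212 CPM with vehicle, Mrc1 at 124, 133 and 165 CPM and 186, 216 and 267 CPM, and Csf1r at 258, 278 and 302 CPM and 291, 327 and 355 CPM. Cx3cr1 was at 149, 132 and 109 CPM with THP and 117, 105 and 94.2 CPM with vehicle. The proliferation marker Mki67 was lowest in the highest band, at 220 against 278 CPM in the lowest with THP and 375 against 574 CPM with vehicle. Inflammatory genes differed among themselves across the THP bands. Acod1 was at 90.5, 91.9 and 92.2 CPM and Tnf at 135, 133 and 140 CPM, while Cxcl1 went up, at 64.9, 68.4 and 85.6 CPM, as did Saa3, at 130, 139 and 164 CPM. Ccl4, at 286, 241 and 252 CPM, and Ccl3, at 216, 169 and 179 CPM, were highest in the lowest band. Median UMIs went from 21440 to 19110 with THP and from 27240 to 20160 with vehicle between the lowest and the highest band. Bands were cut from a score of single cells and are ranges, not cell types.

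Set beside C1q-high cells of the same library, the members had lower levels of a set of genes that included Vsig4, Cd163, Slc40a1 and Marco. On the list of maturation and resident-type genes, 3 of 15 were at least 2-fold lower in all members with THP and 6 of 15 with vehicle, at medians of -0.36 and -0.46, against -0.03 over all genes in each library. The C1q genes themselves are left out, since the rule used them. With the neutrophil-rich cells left out on both sides, a choice made after the data were seen, 7312 genes could be compared in both libraries. At least 2-fold lower in members in both were 31 genes, and 1 gene was higher in both. Within the THP library 0.431% of genes were 2-fold lower and 0.0135% higher, and within the vehicle library 1.16% and 0.164%. Median UMIs of the 2 kinds of cell were 19980 and 22220 with THP and 23280 and 22810 with vehicle, and both kinds were cut from the same cells, so these values describe the division and test nothing.

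Among the 10 genes named as lowest in members, from the ratio nearer to 0 of the 2 libraries, were Slc40a1, Marco, Cd55, Cd5l, Axl, Nr1h3 and Mertk, genes of iron export, particle uptake, complement defense, lipid sensing and removal of dying cells. Slc40a1 was at 3.45 CPM in members and 30.8 CPM in C1q-high cells of the THP library, and at 11.4 and 167 CPM in the vehicle library. Marco was at 33.4 and 194 CPM with THP and 19.4 and 177 CPM with vehicle. Axl, a receptor kinase that recognizes dying cells, was at 17.9 and 68.9 CPM with THP and 20.5 and 123 CPM with vehicle. Genes were named here only if both libraries had the same direction, so the shared order follows from the choice and is no result. Ratios were further from 0 in the vehicle library for each of these 3 genes.

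Lower still, but under 10 CPM in members and named after their values were seen, were Vsig4, a complement receptor of resident macrophages, Cd163, the receptor for hemoglobin and haptoglobin, Vcam1, an adhesion molecule, and Spic, a transcription factor of iron-recycling macrophages. Vsig4 was at 0.425 CPM in members and 33.6 CPM in C1q-high cells with THP, and at 0.418 and 81.6 CPM with vehicle. The log2 ratios of Cd163 were -3.08 and -4.25, those of Vcam1 -4.02 and -5.11, and those of Spic -3.14 and -2.96, in the THP and vehicle libraries. Apoe, the lipid carrier, was at -1.20 and -1.45. The gene higher in members in both libraries was Npy, the neuropeptide Y gene, at 104 CPM in members and 37.5 CPM in C1q-high cells with THP and at 103 and 30.7 CPM with vehicle. Ccr2, at 0.54 and 0.79, and Fn1, at 0.55 and 0.85, were higher in members by less than 2-fold.

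With all cells included, 32 genes were lower and 21 higher in members in both libraries, of 7337 compared. In the THP library 0.444% were lower and 0.336% higher, and in the vehicle library 1.11% and 0.541%. The higher genes were led by neutrophil genes: the 10 highest were Retnlg, Stfa2l1, Cxcr2, Lcn2, Gm5483, Pglyrp1, Mcemp1, Chil1, Hp and S100a8. Neutrophil-rich cells made up 17.88% and 24.21% of members, and 1 gene remained higher in both libraries without them.

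**Figure D4:**
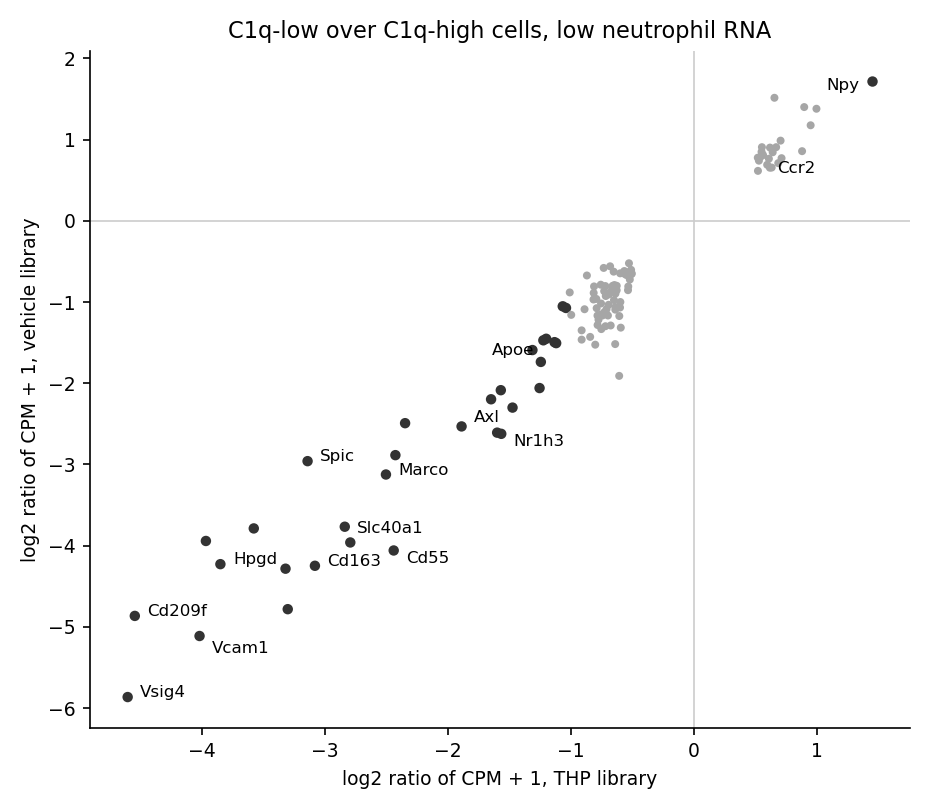
Each point is a gene whose log2 ratio of CPM + 1, C1q-low over C1q-high cells with low neutrophil RNA, was at least 0.5 from 0 in the same direction in both libraries, with the THP library on the horizontal axis and the vehicle library on the vertical axis; black points are at least 2-fold in both. The 31 lower genes spread from Abcg1 and Frmd4b near -1 to Vsig4 at -4.60 and -5.86, and Npy (1.45 and 1.72) is the 1 black point on the other side.

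The comparison of THP with vehicle was also made in C1q-high cells, which come from the same 2 libraries, so that the comparisons share their controls and their values are given side by side only. Of 7937 genes measured in C1q-high cells, 78 were at least 2-fold higher with THP (0.983%) and 241 lower (3.04%). Acod1 was at 80.2 and 3.94 CPM there, a log2 ratio of 4.04 beside 3.59 in members. Tnf was at 156 and 28.0 CPM, a log2 ratio of 2.44 beside 2.26. The medians of the inflammatory and NF-kB lists were 2.44 and 1.19, beside 1.93 and 1.11 in members.

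A few genes had ratios further apart, none of which was tested. Cxcl10 was at 42.0 CPM with THP and 26.1 CPM with vehicle in low-neutrophil members, a log2 ratio of 0.67, and at 46.4 and 6.40 CPM in C1q-high cells, a log2 ratio of 2.68. However, 5 cells held 83.97% of the Cxcl10 UMIs of vehicle members. Without the 5 richest cells of each set the vehicle levels were 4.23 CPM in members and 4.32 CPM in C1q-high cells. Saa3 was at 24.7 CPM in vehicle members and 10.9 CPM in vehicle C1q-high cells, where its log2 ratio was 3.67, and without the 5 richest cells of each set at 9.16 and 6.60 CPM. In the other direction, Fpr1, the receptor for bacterial formyl peptides, had a log2 ratio of 2.98 in members and 1.68 in C1q-high cells, Nr1h3 1.40 and 0.34, and Cd55 1.48 and -0.14. Cd55 was at 12.1 and 3.68 CPM in members but at 70.0 and 77.0 CPM in C1q-high cells, and 5 cells held 40.91% of its UMIs in vehicle members. Without the 5 richest cells of each set it was at 10.8 and 2.19 CPM in members and 68.0 and 73.9 CPM in C1q-high cells.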

How the data were processed

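Single-cell RNA of 1 THP and 1 vehicle library was measured in Chromium droplets. The authors deposited, for each library, a sparse matrix of UMI counts by gene and barcode, not normalized. Its header gives software version 3.1.0 and a matrix format version of 2. The submitters' processing notes name Cell Ranger, STAR, bcl2fastq and the mm10 build. Gene identifiers were matched to GENCODE M21 of GRCm38 for coordinates and longest transcript, and promoters to RefSeq (GRCm38.p6).

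Cells were filtered and chosen by the limits given above. The members and all 19 gene lists and 13 marker lists were chosen with earlier results of these data known. Counts of member cells were summed per library and divided by their total to give CPM. Ratios are log2 of CPM + 1, which understates the change of low genes, and a gene was counted with at least 10 CPM in 1 library and a 2-fold ratio. No test was possible with 1 library per group. Intervals are exact Poisson for CPM and exact binomial (Clopper-Pearson) for shares, at 95%. PCR and capture differences are not covered by them. No doublet caller was run, so doublets remain. The text names the 10 highest and 10 lowest ratios with 1 direction across bands of UMIs (under 10000, 10000 to 20000, more), up to 5 genes of each list, cell type markers, and the 10 highest and lowest ratios against C1q-high cells. Other genes were named after their values were seen. A lowess fit of the ratio on log transcript length (statsmodels 0.14.6, 7830 of 7834 genes) gave the length trend, and edgeR 4.0.16 the TMM and RLE factors. The ratio was tested on simulated counts that varied by counting noise alone, without the spread between cells seen here. Alternatives are listed in the closing section. Some genes are not reported here.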

Additional observations from a re-analysis of the deposited data

Results flagged for a closer look

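Cd55 was higher with THP in members and not in C1q-high cells. Its log2 ratio was 1.29 in members, on 12.1 and 4.35 CPM, and -0.12 in C1q-high cells, and the difference between the 2 kinds of cell was not tested. It fell under 2-fold when every member had equal weight (0.80) or when 5 CPM was added in place of 1 (0.87).

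The cell filter had removed barcodes that meet the limits on genes all the same. Of 1070 removed THP barcodes, 108 did so, which is 10.09% (exact binomial 95% interval 8.35 to 12.06), and of 606 removed vehicle barcodes 37, which is 6.11% (4.34 to 8.32). They were used in no result other than the alternative that takes all deposited barcodes.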

How the results depend on the processing

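No paired analysis was possible because each group had 1 library, so leaving out a library was not possible either. The share of cells that are members, 16.65% with THP and 11.02% with vehicle, became 8.96% and 4.64% with Adgre1 of at least 4, 13.57% and 9.26% with summed C1q under 1, 20.26% and 12.96% with it under 4, 13.68% and 8.35% without neutrophil-rich members, and 12.19% for vehicle at 5000 UMIs per cell. The 80 higher genes became 123 with RLE factors, 50 at a minimum of 50 CPM and 181 at 1.5-fold. The 234 lower genes became 75 with TMM or RLE factors, 65 without the length trend, 96 with a pseudocount of 5 CPM, 70 at a minimum of 50 CPM, 361 in members of 10000 to 20000 UMIs, 365 at 5000 UMIs per cell, 390 with equal weight per cell, 368 with no minimum and 1370 at 1.5-fold. The inflammatory median, 1.93 (1.88 to 1.99 by counting error), became 1.62 with Adgre1 of at least 4, 1.60 with equal weight, 1.59 with no minimum, 2.15 in members of 10000 to 20000 UMIs, 2.14 at 5000 UMIs per cell, 2.19 with TMM or RLE factors, 2.34 at 50 CPM and 2.30 without the 5 cells richest in each gene, an alternative added after the data were seen. The 21 genes higher than in C1q-high cells became 1 without neutrophil-rich cells on both sides, also added later. Without the top 5% of cells by UMIs, Sparc went to 0.22 and Cald1 to 0.28, reversing direction. Of 40 named genes past 2-fold, 25 kept their side and direction in all alternatives, while 15 came under 2-fold in at least 1. TMM and RLE factors changed the sign of 12 of 19 list medians each. Causes not named were not tested.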
